A study of Arabidopsis thaliana with 12 samples.

Results

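AT1G21500 and AT3G56290 are Arabidopsis thaliana nuclear genes taken here as having no known function. The RefSeq table lists both under their locus names alone, which does not by itself show that a function is unknown. They were chosen because both lay far down the order of differences between prors2 and wild-type plants, so these differences are given as a description, with no test. Each was measured by 1 probe that the platform's gene table ties to no other gene. They are 2 of the 692 genes of single-gene probes, among 3439 features on the array. LHB1B2 (AT2G34420) stands beside them as a reference gene of photosynthesis.

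Transcript levels had been measured in total RNA of 6 WT samples and 6 prors2 samples, 1 sample to an array, both in the ecotype Columbia 0. The labels give prors2 as a mutant that has no prolyl-tRNA synthetase. That is their wording, and whether any such enzyme remained in these plants was not measured. The labels state neither the kind of mutation nor the tissue, the age or how the plants were grown. Nor do the labels say whether replicates came from separate plants, so the spread between samples may be technical.

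A prolyl-tRNA synthetase loads proline onto its tRNA, and the organellar enzyme of plants supplies protein synthesis in plastids and mitochondria. Plastids signal their state back to the nucleus, and nuclear genes for photosynthesis are known to lose expression when plastid protein synthesis is disturbed. LHB1B2 encodes an antenna protein of photosystem II that binds chlorophyll, and belongs to a transcript family known for that response. Close copies of it exist in the genome, and whether its probe tells them apart was not tested. No probe was tied to either prolyl-tRNA synthetase locus looked for, AT5G52520 or AT3G62120 (0 probes each), so the genotype labels were not checked at the transcript level.

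The deposited values are relative intensities on a linear scale, and the arrays of the genotypes differed as wholes. The median feature of an array lay between 0.135 and 0.169 in WT and between 0.279 and 0.305 in prors2. Sums differed less, at 2942 to 3167 in WT and 3107 to 3278 in prors2. A difference of one gene therefore depends on what it is read against, and 4 readings are given below: the deposited values, equal array sums, log2 values centred on each array's median, and quantile-normalized log2 values. In such bulk RNA, fewer cells that express a gene and less RNA per cell cannot be told apart.

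AT1G21500 lay lower in every prors2 sample than in any WT sample. Its deposited relative intensity in WT replicates 1 to 6 was 0.782, 0.952, 0.883, 1.03, 0.942 and 1.01, a mean of 0.933 ± 0.090 (SD, n = 6). In prors2 replicates 1 to 6 it was 0.170, 0.247, 0.277, 0.280, 0.261 and 0.281, a mean of 0.253 ± 0.042. The groups did not overlap: the highest prors2 sample stood well under the lowest WT sample, and prors2 replicate 1 stood below the other five. The share of all features whose groups lay apart was not counted, here or below. How unusual such a separation is on these arrays is therefore not known. The WT mean was 3.69 times the prors2 mean.

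AT3G56290 had a less even pattern. Its relative intensity in WT replicates 1 to 6 was 0.120, 0.204, 0.205, 0.180, 0.172 and 0.159, a mean of 0.173 ± 0.032 (SD, n = 6). In prors2 replicates 1 to 6 it was 0.0166, 0.180, 0.0922, 0.188, 0.111 and 0.179, a mean of 0.128 ± 0.068. The groups overlapped on this scale: prors2 replicates 1, 3 and 5 lay under every WT sample, while replicates 2, 4 and 6 lay within the WT range. The highest prors2 sample was 11.4 times the lowest, against 1.71 times in WT. The lowest, replicate 1, lay under 0.0296, the 5th percentile of all values above 0. Its log2 values below are thus those of a very dim reading. The WT mean was 1.36 times the prors2 mean, a gap smaller than the SD of the prors2 samples.

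LHB1B2 was the most even of the 3 genes. It read 29.4, 32.7, 34.0, 35.3, 32.2 and 32.8 in WT replicates 1 to 6, and 10.7, 11.1, 10.4, 10.4, 10.7 and 10.04 in prors2. The groups did not overlap, and the WT mean was 3.10 times the prors2 mean. On the deposited values the ratio of means was thus closer between AT1G21500 and LHB1B2 than between either and AT3G56290.

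**Figure D1:**
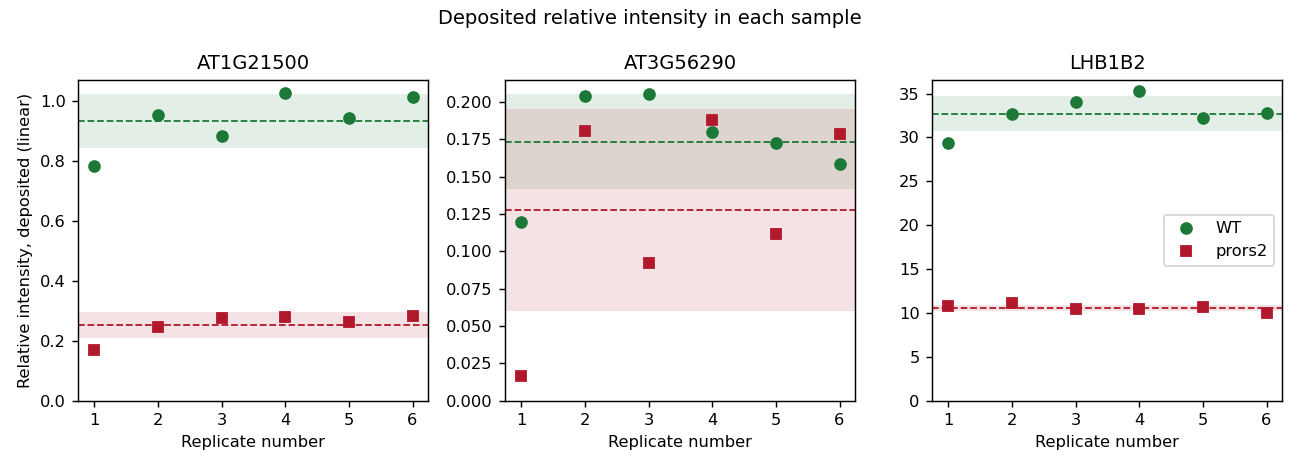
Deposited relative intensity (linear, each panel with its own axis from 0) of AT1G21500, AT3G56290 and LHB1B2 in the 6 WT samples (green circles) and 6 prors2 samples (red squares), by replicate number; dashed lines are group means and bands 1 SD. The groups are apart for AT1G21500 and LHB1B2, while for AT3G56290 prors2 replicates 2, 4 and 6 lie among the WT samples.

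A gene's position among the features of its own array does not change when that array is multiplied by a constant, though it depends on the other features too. In WT, 88.1% ± 1.2 (SD, n = 6) of the 3439 features were dimmer than AT1G21500, and in prors2 44.3% ± 5.7. This gene thus moved from the bright part of the array to below its middle in all 6 prors2 samples. For AT3G56290 the share of dimmer features was 53.0% ± 5.9 in WT and 25.1% ± 9.7 in prors2. By position its groups did not overlap: WT samples ran from 42.0% to 57.7% and prors2 samples from 10.7% to 34.2%. The share of all features that lay apart by position was not counted, so how common this is cannot be said. LHB1B2 stayed near the top, at 99.5% ± 0.027 and 98.9% ± 0.031, since few features are brighter than it in either genotype.

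**Figure D2:**
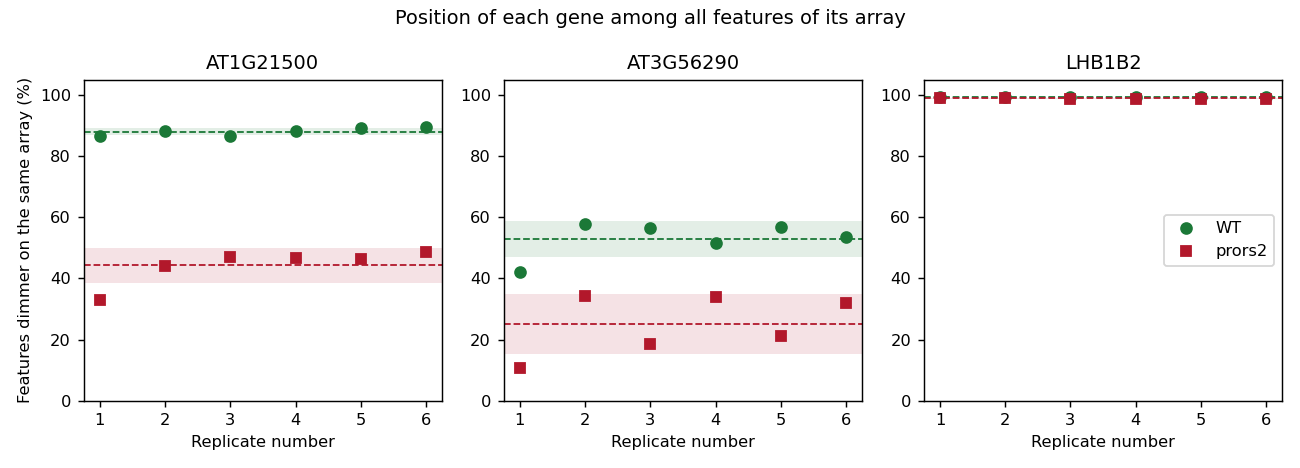
Share of the 3439 features of the same array that were dimmer than each gene (%), by replicate number, WT as green circles and prors2 as red squares, with dashed group means and bands of 1 SD. All 6 prors2 samples lie below all WT samples for AT1G21500 and AT3G56290, and LHB1B2 stays near 99% in both groups.

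The size of the difference in AT1G21500 varied with the scaling, but not its direction. The log2 difference (prors2 minus WT, with limma's standard error) was -1.90 (SE 0.14) on the deposited values and -1.97 (SE 0.13) at equal sums. It was -2.73 (SE 0.14) after median centring and -2.50 (SE 0.14) after quantile normalization. For AT3G56290 the same readings gave -0.76 (SE 0.52), -0.84 (SE 0.52), -1.59 (SE 0.51) and -1.67 (SE 0.49), so its standard error was more than 3 times that of AT1G21500 on each scale. For LHB1B2 they gave -1.63 (SE 0.079), -1.70 (SE 0.076), -2.46 (SE 0.087) and -1.23 (SE 0.076). All of these are differences on the log2 scale.

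The calls of the fit across all features are given only to place these genes, since the genes were chosen by this contrast. After quantile normalization 22.4% of the 3024 tested features were called lower in prors2 (limma, adjusted p under 0.05), and both genes and LHB1B2 were among them. The share called lower was 29.1% after median centring, 8.90% for deposited values and 9.85% for equal sums. AT1G21500 and LHB1B2 were called lower on all 4 scales, AT3G56290 after quantile normalization and median centring only. Without prors2 replicate 1, the difference of AT3G56290 after quantile normalization was -1.19 (SE 0.23). Leaving out replicate 1 of both groups, a choice made after the values were seen, gave -0.34 (SE 0.22) on the deposited values and -0.41 (SE 0.22) at equal sums. It gave -1.18 (SE 0.21) after median centring and -1.29 (SE 0.22) after quantile normalization.

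Features of like level show what these readings are set against. Among 693 tested features within 0.5 log2 units of the mean level of AT3G56290, the median difference was 1.01 on the deposited values and 0.08 after quantile normalization. Among 568 features around the level of AT1G21500 these medians were 0.57 and 0.0039. Both genes therefore lay below the median of the features of their own level on either scale. Only 16 features lay around LHB1B2, with medians of 0.49 and 0.81. Measured from the median of all tested features, AT1G21500 lay at -2.66 on the deposited values and -2.57 after quantile normalization, AT3G56290 at -1.53 and -1.74, and LHB1B2 at -2.39 and -1.31.

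By replicate number, AT1G21500 was lower in prors2 in 6 of 6 pairs under each of the 4 scalings. After quantile normalization its log2 differences for numbers 1 to 6 were -2.85, -2.55, -2.21, -2.41, -2.51 and -2.48. The deposited values gave -2.20, -1.95, -1.67, -1.88, -1.85 and -1.85. The pairs thus stayed within a narrow band, with an SD of 0.21 and 0.17, and number 1 gave the largest difference on both scales.

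AT3G56290 varied much more from pair to pair. After quantile normalization its log2 differences for numbers 1 to 6 were -3.58, -1.02, -2.02, -0.74, -1.75 and -0.89 (SD 1.07). On the deposited values they were -2.86, -0.18, -1.16, 0.07, -0.63 and 0.17 (SD 1.14). The pairs numbered 1, 3 and 5 had the larger differences on both scales. At equal sums, as on the deposited values, only 4 of 6 pairs were below 0, and pairs 4 and 6 were slightly above it. After median centring and quantile normalization all 6 were below 0. Over the features above 0 in all samples, WT and prors2 samples of neighbouring numbers (1 and 2, 3 and 4, 5 and 6) deviated together, with a mean correlation of 0.117 against -0.104 for other numbers. Within numbers 1 and 2, 3 and 4, and 5 and 6 the mean quantile-normalized difference was -2.30, -1.38 and -1.32 for AT3G56290, and -2.70, -2.31 and -2.50 for AT1G21500.

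**Figure D3:**
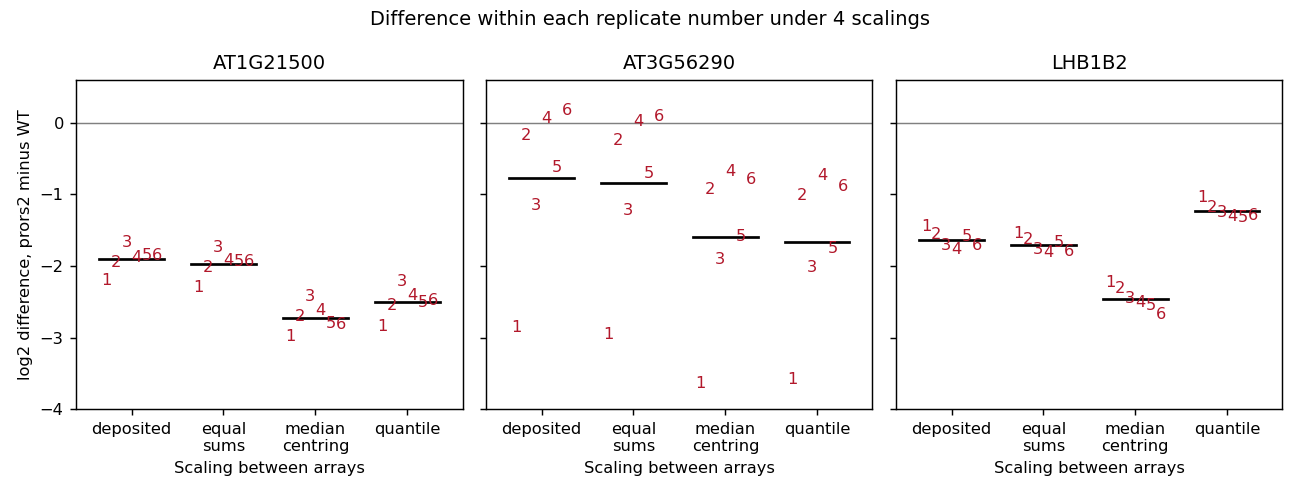
The log2 difference (prors2 minus WT) within each replicate number, drawn as that number, under 4 scalings for AT1G21500, AT3G56290 and LHB1B2; black bars are the means of the 6 pairs. AT1G21500 and LHB1B2 keep their 6 pairs close together, whereas AT3G56290 runs from -2.86 to 0.17 on the deposited values.

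The differences were then set against that of LHB1B2 in the same pair, with no test. Dividing by LHB1B2 on the same array removes any constant of the array, so the deposited, equal-sum and median-centred values give one answer. On those scales AT1G21500 differed by 0.27 log2 units more than LHB1B2 (mean of 6 pairs -0.27, SD 0.28), in 5 of 6 pairs. The pairs ran from -0.75, in the pair numbered 1, to 0.03. That pair enlarges the mean gap, and the mean without it was not taken. After quantile normalization the gap was -1.27 (SD 0.29), in 6 of 6 pairs. The direction of the mean gap was the same in both readings, and its size depended on the scaling. As a log2 ratio to LHB1B2 on the same array, 3 of 6 prors2 samples lay below the lowest WT sample.

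For AT3G56290 the sign itself changed. Relative to LHB1B2 its mean difference was 0.87 (SD 1.22) on the 3 scales that keep ratios, above 0 in 5 of 6 pairs and at -1.41 in the pair numbered 1. In those 5 pairs AT3G56290 was thus lowered less than LHB1B2 or, on the deposited values of pairs 4 and 6, not lowered at all. After quantile normalization the mean was -0.43 (SD 1.15), with 3 pairs on each side of 0. In the quantile-normalized fit, where samples are not paired by number, the gap was 0.07 without prors2 replicate 1. It was -0.0097 with replicate 1 of both groups left out, a choice made after the values were seen.

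In the order of all 606 tested single-gene features, AT1G21500 had the lowest difference under each of the 4 scalings. Among all 3024 tested features, most of them unnamed here, it was at place 13 from the bottom after quantile normalization and at place 20 on the other 3 scales. Next above it among single-gene features, after quantile normalization, was AT4G12270 at -2.38 (SE 0.41), a feature with a relative intensity of 0.080 ± 0.035 in WT and 0.027 ± 0.022 in prors2 (SD, n = 6). The standard errors of these neighbours overlap. The standard error of AT4G12270 was about 3 times that of AT1G21500.

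AT3G56290 was at place 17 of 606 after quantile normalization and at place 27 on each of the other scales. Its neighbours in that order were AT5G47030, which encodes a mitochondrial ATP synthase subunit, at -1.68 (SE 0.40), and ATAB2 (AT3G08010), which helps to translate photosystem subunits, at -1.59 (SE 0.40). These 3 do not differ beyond their standard errors. LHB1B2 was at place 40 after quantile normalization and at place 3 on the other scales. Its neighbours at place 39 and 41 were AT1G70200 at -1.24 (SE 0.21) and PSBY (AT1G67740), a small photosystem II subunit, at -1.22 (SE 0.14).

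**Figure D4:**
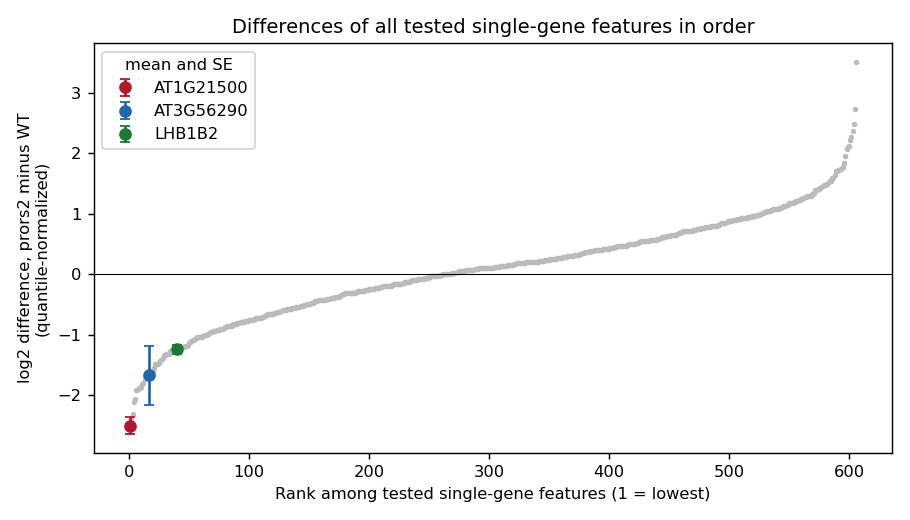
Quantile-normalized log2 differences (prors2 minus WT) of the 606 tested single-gene features, ordered from lowest to highest (grey points), with AT1G21500, AT3G56290 and LHB1B2 drawn with their standard errors. AT1G21500 is at place 1, AT3G56290 at place 17 with a wide error bar, and LHB1B2 at place 40.

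The spread between replicates is given as a description too, since the sample values behind it also enter the differences by which the genes were chosen. The SD of the quantile-normalized log2 value of AT3G56290 was 0.26 in WT, where 43.6% of tested features had a smaller SD, and 1.27 in prors2, where 94.2% had. Among 387 features within 0.5 log2 units of its prors2 level, 88.4% had a smaller SD. AT1G21500 had an SD of 0.15 in WT and 0.28 in prors2, with 17.3% and 37.3% of features below it. The median SD of all tested features was 0.30 in WT and 0.34 in prors2. Both prors2 values rest largely on replicate 1. Without that sample, left out after the values were seen, the SD in prors2 was 0.50 for AT3G56290, with 71.9% of features below it, and 0.086 for AT1G21500, with 2.28% below it.

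Whether the genes varied together among samples of one genotype was tested over 3 gene pairs in each group, 6 relations in all. The permutation treats the 6 samples of a group as exchangeable. Neighbouring replicate numbers deviated together, so the samples may not be independent, and the p-values here and in the next paragraph may be misstated. In prors2, AT1G21500 and AT3G56290 had r = 0.883 (n = 6, two-sided exact permutation p = 0.211, adjusted 0.422) and rho = 0.257 (exact permutation p = 0.658, adjusted 0.658). Without the 2 samples farthest from the median of AT1G21500, r was 0.484, so the value rests largely on those samples, replicate 1 among them. In WT they had r = 0.496 (n = 6, exact permutation p = 0.378, adjusted 0.454) and rho = 0.257 (exact permutation p = 0.658, adjusted 0.658), and r = -0.104 without the 2 farthest samples. No relation between the genes passed the test among replicates.

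Nor did a relation of either gene with LHB1B2 within a genotype pass. In WT, r was 0.662 for AT1G21500 (n = 6, exact permutation p = 0.169, adjusted 0.422) and 0.911 for AT3G56290 (exact permutation p = 0.139, adjusted 0.422). Their rho was 0.429 (exact permutation p = 0.419) and 0.371 (exact permutation p = 0.497), both 0.658 after adjustment. Without the 2 farthest samples r was 0.214 and 0.221. After median centring, where both values of a sample share the array's median, r in WT was 0.945 for AT1G21500 and 0.590 for AT3G56290. In prors2, r was -0.542 (n = 6, exact permutation p = 0.358, adjusted 0.454) and -0.323 (exact permutation p = 0.483, adjusted 0.483). There rho was -0.771 (exact permutation p = 0.103, adjusted 0.618) and -0.371 (exact permutation p = 0.497, adjusted 0.658), and r without the 2 farthest samples was -0.434 and -0.0457.

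The features most like each gene were found by the root-mean-square difference between their profiles over the 12 samples, each centred on its own WT mean. With this centring the distance depends largely on the difference between prors2 and WT, by which the genes were chosen. Nearness is thus given as a description and is no separate support. AT1G21500 was compared with 589 single-gene features, whose median distance was 1.92 log2 units after quantile normalization. The nearest was AT5G55580 (mTERF9, of a family of organellar nucleic acid-binding proteins) at 0.263 over 11 samples. Its relative intensity was 1.38 ± 0.285 in WT (SD, n = 6) and between 0 and 0.463 in prors2, with prors2 replicate 2 listed at 0 and left out of the distance. AT3G52070 followed at 0.422 and AT1G11800 at 0.455. AT3G52070 went from 1.53 ± 0.365 to 0.493 ± 0.11 and AT1G11800 from 0.580 ± 0.077 to 0.255 ± 0.051, with all 6 prors2 samples below every WT sample in both.

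The place of the photosynthetic genes in that order changed with the scaling. After quantile normalization, PSAN (AT5G64040, a photosystem I subunit), LHB1B2 and PSBY were at places 18, 19 and 22 of 589 from AT1G21500, at distances of 0.903, 0.919 and 0.946. After median centring they were at places 4, 2 and 6, at 0.354, 0.281 and 0.445. AT5G55580 stayed nearest on both scales, at 0.250 after median centring. PSBW (AT2G30570) and PSB27 (AT1G03600), both of photosystem II, were far from it on both, at places 414 and 421 and then 139 and 225. AT3G56290 itself was at place 17 and then 34 from AT1G21500.

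AT3G56290 had no match as near as those of AT1G21500. Its own spread in prors2, with an SD of 1.27 that rests largely on replicate 1, enlarges its distance to any steadier gene. The median distance of 589 features from it was 1.59 log2 units, and the nearest after quantile normalization were AT1G11800 at 0.637, AT4G09040 at 0.661 and AT3G44050, a kinesin, at 0.707 over 10 samples. After median centring the same 3 were nearest in another order, AT4G09040 at 0.567, AT3G44050 at 0.718 and AT1G11800 at 0.735. AT1G11800, which was also among the 3 nearest to AT1G21500, read 0.431, 0.580, 0.594, 0.607, 0.657 and 0.610 in WT replicates 1 to 6. In prors2 it read 0.159, 0.267, 0.250, 0.294, 0.261 and 0.302. It was lowest in replicate 1 in both genotypes, as was AT3G56290, but its groups did not overlap on the deposited values.

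AT4G09040 matched AT3G56290 mainly through 1 sample. Its relative intensity in prors2 replicates 1 to 6 was 0.0322, 0.416, 0.248, 0.368, 0.420 and 0.490, against 0.234 to 0.464 in WT. Only prors2 replicate 1 lay under the WT range. Replicate 3 was the next lowest, as in AT3G56290, but lay within the WT range, and replicate 5 was not low. For AT3G44050, prors2 replicates 1 and 5 were listed at 0 and left out of the distance. PSAN, LHB1B2 and PSBY were at places 13, 21 and 23 from AT3G56290, and AT1G21500 at place 24. After median centring these 4 were at places 52, 103, 68 and 107.

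**Figure D5:**
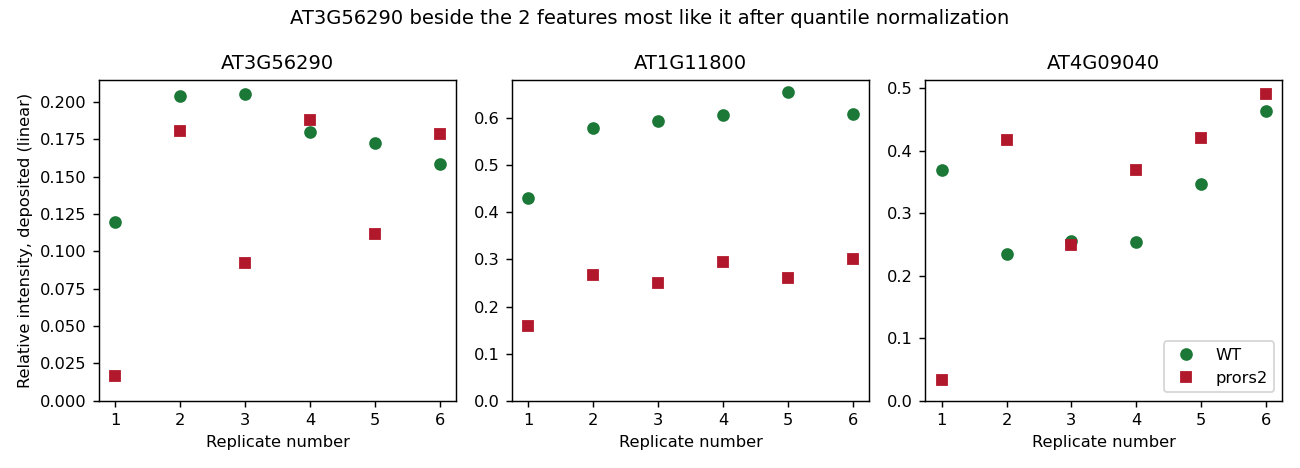
Deposited relative intensity (linear, axes from 0) by replicate number of AT3G56290 and the 2 features nearest to it after quantile normalization, AT1G11800 and AT4G09040, with WT as green circles and prors2 as red squares. All 3 are lowest in prors2 replicate 1, and only in AT3G56290 do replicates 3 and 5 also lie below the whole WT range while 2, 4 and 6 lie within it, AT1G11800 being below it throughout.

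Genes listed, like these, under a locus name alone were counted as a wider setting. This list was formed after the reference table was seen and also holds genes of known function. Of 520 tested members other than AT1G21500 and AT3G56290, 138 (26.5%) were called higher and 96 (18.5%) lower after quantile normalization. The other 286 did not pass, and the median log2 difference of the list was 0.14. All 606 single-gene features gave 156 higher and 119 lower, with a median of 0.12. Of all tested features 24.8% were called higher and 22.4% lower, so the list had a slightly larger share higher and a smaller share lower. The list split into 329 higher and 29 lower as deposited, 312 and 35 at equal sums, and 115 and 122 after median centring. On those scales 57.8%, 55.0% and 19.8% of all tested features were called higher, and 8.90%, 9.85% and 29.1% lower. The share called lower was thus smaller in the list than among all tested features on every scale. All single-gene features, most of them in the list, split into 376 and 34, 359 and 41, and 129 and 150. Of the 20 genes next to the pair on their chromosomes, 5 on each side of each gene, 1 had a single-gene feature. This was AT3G56330, at a log2 difference of 0.32 (limma adjusted p = 0.177).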

How the data were processed

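Relative intensities of 12 one-channel arrays were deposited in one table, on a linear scale; what the authors divided each intensity by and how background was corrected is not stated by the labels. The table has 3439 features and 0 columns from other samples. Zeros were treated as missing, log2 values were quantile-normalized, and features with at least 4 of 6 values above 0 per group were tested with limma 3.58.1 in R 4.3.3 (Benjamini-Hochberg, threshold 0.05). This held for 3024 features, 606 of them single-gene, and for both genes and LHB1B2, each above 0 in 12 of 12 samples. The platform's gene table, which may be old, gave 692 single-gene probes, 690 of them matched to RefSeq (TAIR10.1) for names, 870 with several genes and 1877 features not listed. The array's genome build is not stated, so coordinates are not printed. Correlations used exact permutations (scipy 1.17.1). The fit and the profile distance were tested on simulated data. The number of arrays limits the precision.

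Named genes were the pair, LHB1B2 with 4 other light-reaction genes, the 3 nearest profiles (at least 10 of 12 samples shared), and neighbours in the order of differences. A list by product name could not be formed, since the reference table has no products, and the planned motif search was not run. Members, lists and tests were chosen with earlier results of these data known. Replicate numbers paired the samples: same-numbered deviations correlated between 0.212 and 0.399 over 2654 features above 0 in all samples, a pairing that comes from the data since the labels give none. Alternatives were other scalings, treatments of zeros, filters, the replicate block and leaving out each sample.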

Additional observations from a re-analysis of the deposited data

Results flagged for a closer look

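Of 28 sets of 6 values checked for a sample far from the other five (Dixon's test at the 95% level, which chance alone meets in about 1 of 20), 11 had one, and in each it was replicate 1. The sets are not independent, since several restate one gene on another scale. In prors2, AT1G21500 of replicate 1 stood apart at a relative intensity of 0.170, at 33.0% of features dimmer, and at log2 values of -3.00 after quantile normalization and -0.90 after median centring. In prors2, AT3G56290 of replicate 1 stood apart at -6.22 after quantile normalization, -4.26 after median centring and -9.34 as a log2 ratio to LHB1B2. In WT, AT3G56290 of replicate 1 stood apart at -2.64 and -0.63 on the first 2 of these scales. LHB1B2 of WT replicate 1 stood apart at 4.59 after quantile normalization and at 99.45% of features dimmer.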

How the results depend on the processing

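The deposited values, equal sums and median centring gave AT1G21500 log2 differences of -1.90, -1.97 and -2.73 against -2.50, LHB1B2 -1.63, -1.70 and -2.46 against -1.23, and a gap between them of -0.27 on all 3 against -1.27. The gap between AT3G56290 and LHB1B2 turned from -0.43 to 0.87 on those 3 scales, and to 1.32 with replicate 1 of both groups also left out, a choice made after the data were seen. Without it AT3G56290 itself was at -0.34 (deposited values) and -0.41 (equal sums). Zeros set to the lowest positive value moved AT3G56290 to -2.64, with an SE of 1.29 in place of 0.49, and its gap to -1.35. An offset added before log2, which damps low values, gave AT3G56290 -1.33 (SE 0.30) and a gap of -0.048. Leaving out each sample gave -2.57 to -2.42 for AT1G21500, -1.84 to -1.19 for AT3G56290 and -1.27 to -1.21 for LHB1B2. It gave gaps of -1.34 to -1.16 and of -0.62 to 0.0662, the last without prors2 replicate 1. Calls were 751 higher and 676 lower, against 1747 and 269 on the deposited values and 1664 and 298 at equal sums. They ran from 702 to 737 and from 627 to 665 over single samples left out. With the replicate block the differences of the 3 genes were unchanged, at -2.50 (SE 0.099), -1.67 (SE 0.38) and -1.23 (SE 0.076), with 846 higher and 759 lower calls. The cause of these shifts was not tested. No difference of the 3 genes changed sign under any of these alternatives. The background level is not stated, so how far the low prors2 values of AT3G56290 stand above it cannot be given. Its prors2 replicate 1, at 0.0166, lay under the 5th percentile of all values above 0, which was 0.0296.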
